A study of Mus musculus with 3 samples.

Results

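Matricellular proteins are secreted into the extracellular matrix but do not build its fibres. They bind collagens, proteases, growth factors and cell surface receptors, and so set how firmly cells hold on to the matrix and which signals they receive from it. Fibroblasts are a main source of them, and several are known for marked expression during wound repair, fibrosis and skeletal growth. Levels of 10 genes of this kind were examined on expression arrays of NIH3T3 cells, which are fibroblasts of an immortal line raised from NIH/Swiss mouse embryos. They are Postn, which encodes periostin, Sparc and its relatives Sparcl1, Smoc1 and Smoc2, the thrombospondin genes Thbs1 and Thbs2, Tnc, which encodes tenascin-C, Spp1, which encodes osteopontin, and Mgp, which encodes matrix Gla protein. Probe sets whose annotation names one of these genes alone were taken, and they were found for 9 of the 10 genes, with 16 probe sets among 45037 on the array and 9 genes among the 18193 that could be named. Spp1 is not analysed here. The genes were chosen by their differences from control on these same arrays, so the values that follow describe the genes and are no independent evidence of a direction.

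RNA came from NIH3T3 cells overexpressing mtYAP (Yap with the S112A substitution), from cells overexpressing wild-type YAP and from control cells that the labels call untransduced, with 1 array for each condition and 10% calf serum in the medium of all 3. Serine 112 is the residue that the LATS kinases of the Hippo pathway phosphorylate, and its loss stabilizes YAP, a coactivator of TEAD transcription factors. Both overexpressing lines were made by retroviral infection followed by puromycin selection, the surviving cells being used together, whereas the labels give the control neither virus nor drug. The methods also mention an empty vector without saying which control was hybridized, and how dense the cultures were when RNA was taken is not stated there. The paper introduces the arrays as a way to explore growth that goes on under confluent conditions. A free-text label of the control array refers to embryonic stem cells. There were no replicates, so no value below has an error or a test, each difference compares single arrays, and both comparisons with control rest on the same control array. Levels are log2 values of the robust multiarray analysis method (RMA), so that a difference of 1 means 2-fold, and a gene past this limit in either direction is called here. A level of 6 or more was taken as clearly measured.

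The arrays as a whole were close to each other, with median differences of at most 0.01 between any pair and correlations over probe sets between 0.969 and 0.988. Yap1 was read by 2 probe sets and stood at 7.89 in mtYAP, 8.06 in YAP and 8.57 in control. The vectors carried the coding sequence, and the stretch of mRNA that these probe sets read was not looked up, so that they do not check the labels. Of 4 genes known as YAP targets, Ankrd1 had differences from control of 4.23 (mtYAP) and 2.80 (YAP), Ccn2 of 3.05 (mtYAP) and 0.49 (YAP), Amotl2 of 1.36 (mtYAP) and 0.57 (YAP) and Ccn1 of 1.61 (mtYAP) and −0.81 (YAP). All 4 were thus past 2-fold in mtYAP, and only Ankrd1 was in YAP. All 12 fibroblast markers reached 6 on each of the 3 arrays. No probe set of the epithelial, endothelial or embryonic stem cell markers did so on any array. Of 6 macrophage and leukocyte markers 1 had such a probe set, Csf1r, at 6.54 in mtYAP, 6.29 in YAP and 6.09 in control, its other probe sets being below 6. Of 6 measured osteoblast and chondrocyte markers 1 did, Sox9, at 6.27 in mtYAP, 7.13 in YAP and 8.26 in control in its brightest probe set. Of the fibroblast markers, 5 of 12 lay below −1 in mtYAP, where 4.06% of all genes and 8.22% of the genes at 6 or more on at least 1 array did so, with Pdgfrb at −2.62 and Pdgfra at −2.41, the receptors of platelet-derived growth factor, and with Thy1 at −1.67, S100a4 at −1.68 and Prrx1 at −1.13. In YAP only Pdgfrb passed, at −1.10, where 1.26% of all genes did so. Of 6 markers of smooth muscle and myofibroblasts, 3 had a probe set at 6 or more in mtYAP, 3 in YAP and 4 in control, with list medians of −0.33 in mtYAP and −1.09 in YAP. The brightest was that of Acta2, smooth muscle actin, at 9.29 in mtYAP, 8.17 in YAP and 11.27 in control. Of the fibroblast markers, 11 of 12 were below 0 in mtYAP and 8 in YAP. Of the smooth muscle and myofibroblast markers, 3 of 6 were below 0 in mtYAP and 4 in YAP. Over both lists, those above 0 in mtYAP were Twist1 (0.67), Cnn1 (0.75), Des (0.35) and Myh11 (0.33). Cnn1 and Myh11 were below 6 on all arrays. Of the smooth muscle and myofibroblast markers, 2 lay below −1 in mtYAP and 3 in YAP, where 4.06% and 1.26% of all genes did so. Myl9 had −2.47 (mtYAP) and −2.38 (YAP), and Tagln −0.98 (mtYAP) and −1.75 (YAP). With gene means under 6 set to 6, none lay below −1 in mtYAP and 1 did in YAP. The part of either marker list in the results below was not tested. In a culture measured in bulk, fewer cells of one kind and less RNA per cell cannot be told apart.

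Promoter windows of 300 bases, from 250 before to 50 after an annotated start, were at hand in RefSeq (GRCm38.p6) for 4 of the 9 genes, as 6 windows. Those below are shown because Postn and Thbs2 had the widest gaps of the 9 genes between mtYAP and YAP, while Sparc stayed within 2-fold of control. The Postn window is that of the inner of its 2 annotated starts. Capitals mark the letters TATAAA, the core of the TATA box, read on either strand.
Postn, chr3:54360857-54361156, + strand: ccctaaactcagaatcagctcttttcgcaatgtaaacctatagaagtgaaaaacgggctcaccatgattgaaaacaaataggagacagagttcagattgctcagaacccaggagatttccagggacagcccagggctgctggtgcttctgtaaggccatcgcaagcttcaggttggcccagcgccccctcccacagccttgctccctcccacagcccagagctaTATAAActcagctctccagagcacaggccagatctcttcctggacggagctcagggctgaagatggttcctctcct
Thbs2, chr17:14694213-14694512, − strand: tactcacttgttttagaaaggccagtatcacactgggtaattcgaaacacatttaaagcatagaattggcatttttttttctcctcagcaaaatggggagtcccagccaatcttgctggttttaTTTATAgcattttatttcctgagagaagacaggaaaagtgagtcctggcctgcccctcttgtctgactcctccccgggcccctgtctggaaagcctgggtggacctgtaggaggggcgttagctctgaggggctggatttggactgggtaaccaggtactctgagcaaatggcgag
Sparc, chr11:55420031-55420330, − strand: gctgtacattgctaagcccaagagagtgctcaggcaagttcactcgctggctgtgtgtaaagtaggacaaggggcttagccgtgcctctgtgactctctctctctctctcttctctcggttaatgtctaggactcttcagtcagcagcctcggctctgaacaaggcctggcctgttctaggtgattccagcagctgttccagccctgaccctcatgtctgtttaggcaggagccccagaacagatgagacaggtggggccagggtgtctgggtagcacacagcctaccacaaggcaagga
In the Postn window the match begins 26 bases before the start. In the Thbs2 window it lies 126 bases before the start and on the opposite strand, and the Sparc window holds none. These letters occur in 13.6% of the 32851 windows of the table and in 4 of the 6 windows of these genes, of which the 2 overlapping windows of Tnc hold the same match. Neither the letters GGAATG, which TEAD factors bind, nor TGANTCA, the AP-1 element, nor a CArG box, the element of serum response factor, occurs on either strand of any of the 6 windows. They occur in 14.7%, 7.81% and 1.63% of all windows. A missing match says only that these letters are not in these windows.

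Periostin is a secreted protein with fasciclin domains that binds collagen, tenascin-C and integrins and promotes the cross-linking of collagen. Its single probe set read 4.17 in mtYAP, 7.88 in YAP and 10.97 in control. The 3 arrays therefore lay far apart, with YAP between mtYAP and control. The difference from control was −6.80 (111-fold) in mtYAP and −3.09 (8.51-fold) in YAP, and that of mtYAP from YAP was −3.71 (13.1-fold). Because the mtYAP level is below 6, the size of its gaps is uncertain. With levels under 6 set to 6, mtYAP differed from control by −4.97 (31.3-fold) and from YAP by −1.88 (3.68-fold). These are least sizes, so the gap between the lines is not ordered here against that of Thbs2. With levels as they stand, Postn was the lowest of all genes in mtYAP and between mtYAP and YAP, and the 5th lowest in YAP. Among all genes at that floor Postn was the 2nd lowest in mtYAP, the 2nd lowest in YAP and the 13th lowest between mtYAP and YAP.

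The thrombospondins of this pair are trimeric glycoproteins that bind CD36, CD47 and heparan sulfate, and Thbs2 was past 2-fold in mtYAP whereas Thbs1 was not. Thrombospondin-2 is known as an inhibitor of angiogenesis and for its part in the order of collagen fibrils. Its 3 probe sets read 9.14, 8.14 and 8.52 in mtYAP, 11.80, 10.88 and 11.60 in YAP and 12.71, 11.57 and 12.83 in control. In each probe set mtYAP was lowest and control highest, and all these levels were above 6, so no value rests on the background. As the mean of the probe sets, the difference of Thbs2 was −3.77 (13.6-fold) for mtYAP against control, −0.94 (1.92-fold) for YAP against control and −2.83 (7.09-fold) for mtYAP against YAP, the 2nd lowest difference of all genes between the lines with levels under 6 set to 6. In YAP the probe sets fell on both sides of the 2-fold limit, at −0.91, −0.69 and −1.23. Thrombospondin-1 is known as an activator of latent TGF-beta. The 2 probe sets of Thbs1 read 8.22 and 10.68 in mtYAP, 8.01 and 10.60 in YAP and 8.45 and 10.97 in control. The differences were −0.26 in mtYAP and −0.41 in YAP, far inside the 2-fold limit, and a further probe set that also names Pald1 read 12.15 in mtYAP, 11.98 in YAP and 12.27 in control.

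The SPARC family shares a calcium-binding domain, and its members split between large differences and small ones. SMOC2 and SMOC1 are modular calcium-binding relatives of SPARC that are found in basement membranes. The 2 probe sets of Smoc2 read 3.46 and 3.45 in mtYAP, 4.21 and 3.68 in YAP and 8.87 and 8.28 in control. Both overexpressing lines were thus below 6 in both probe sets and control was well above it. The mean differences were −5.12 (34.8-fold) in mtYAP and −4.63 (24.8-fold) in YAP, and with levels under 6 set to 6 both were −2.58 (5.96-fold). Between mtYAP and YAP the difference was −0.49, between levels that are both too low to be ordered.

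Smoc1 read 4.71 in mtYAP, 5.42 in YAP and 6.02 in control in its single probe set. Its difference was −1.31 (2.48-fold) in mtYAP and −0.60 in YAP. Control itself barely reached 6, and with levels under 6 set to 6 both differences were −0.02. Sparcl1 encodes hevin, a collagen-binding protein also known for its part in synapse formation. It read 3.82 in mtYAP, 3.96 in YAP and 7.26 in control, with a difference from control of −3.44 (10.9-fold) for mtYAP and −3.30 (9.85-fold) for YAP, and of −0.14 between the lines. Both lines lay below 6, and with that floor the difference was −1.26 (2.39-fold) in each.

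SPARC, or osteonectin, is a collagen-binding glycoprotein that takes part in the assembly of collagen fibrils. Of the 3 probe sets of Sparc, those at high levels read 11.45 and 10.67 in mtYAP, 11.97 and 11.33 in YAP and 12.15 and 11.55 in control. The other read 5.16 in mtYAP, 4.95 in YAP and 4.98 in control and was below 6 throughout. The high probe sets differed from control by −0.70 and −0.88 in mtYAP and by −0.18 and −0.22 in YAP, and the low one by 0.18 in mtYAP and −0.03 in YAP. Their mean was −0.47 in mtYAP and −0.14 in YAP. Sparc was thus lower than control by less than 2-fold in mtYAP and closer to control in YAP.

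Matrix Gla protein inhibits the calcification of vessel walls and cartilage and antagonizes bone morphogenetic proteins. Mgp read 4.96 in mtYAP, 3.82 in YAP and 8.18 in control. Relative to control it stood at −3.22 (9.32-fold) for mtYAP and at −4.36 (20.5-fold) for YAP. It was the member that stood above the 2-fold limit in mtYAP relative to YAP, at 1.14 (2.20-fold). Both of those levels were below 6, so this order is uncertain, and with levels under 6 set to 6 the difference from control was −2.18 (4.53-fold) in both lines. Tenascin-C is a large glycoprotein with repeats related to epidermal growth factor and fibronectin, known for its appearance in wounds and tumour stroma. The 2 probe sets of Tnc read 8.94 and 6.54 in mtYAP, 8.90 and 6.82 in YAP and 9.54 and 7.21 in control. Both lines were below control in both probe sets, by −0.60 and −0.67 in mtYAP and by −0.64 and −0.39 in YAP, and the lines themselves differed by −0.12 on average.

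**Figure D1:**
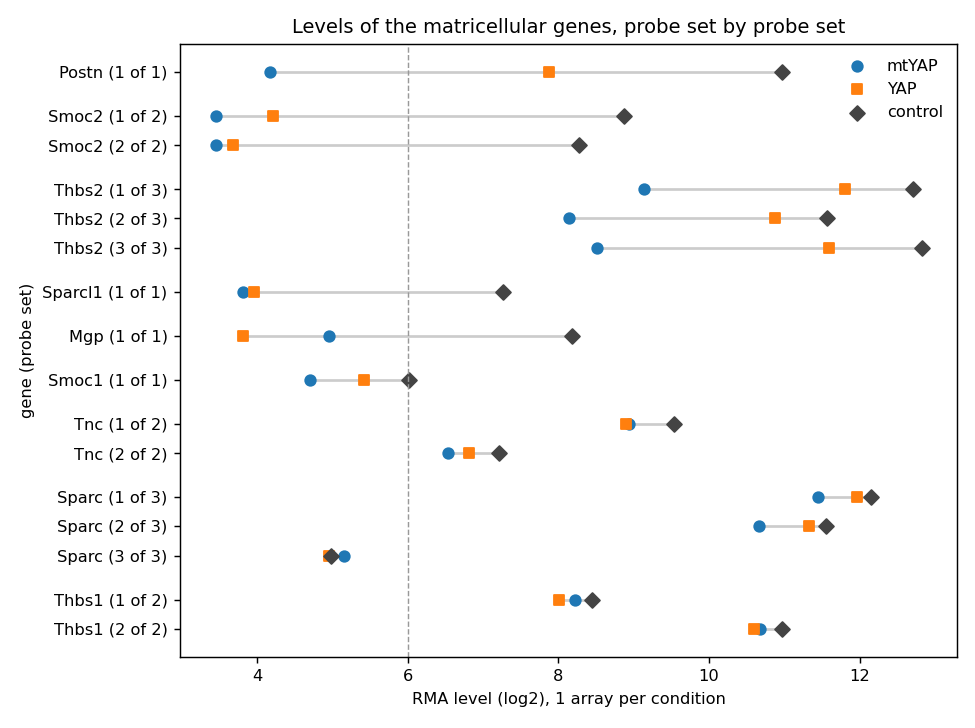
RMA level on the log2 scale (horizontal axis) of each of the 16 probe sets of the 9 measured genes (vertical axis), on the single mtYAP (blue circles), YAP (orange squares) and control (dark diamonds) arrays, with grey lines joining the 3 arrays and a dashed line at a level of 6. Postn reads 4.17 in mtYAP, 7.88 in YAP and 10.97 in control, the Thbs2 probe sets stay above 6 on all arrays, and both lines lie below 6 for Smoc2, Sparcl1, Mgp and Smoc1.

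Taking the 9 genes together, 6 lay below −1 in mtYAP and none above 1, where 4.06% of all genes lay below −1 and 3.77% above 1. In YAP, 4 lay below −1 and none above 1, where 1.26% of all genes lay below −1 and 1.36% above 1. Those past the limit in YAP were Smoc2, Mgp, Sparcl1 and Postn, and in mtYAP Thbs2 and Smoc1 were added. The 9 genes reached a level of 6 in control, while 4 did so in mtYAP and 5 in YAP, and among the 7129 genes that reached 6 on at least 1 array 8.22% lay below −1 in mtYAP and 2.3% in YAP. The differences of all 9 genes were below 0 in both lines, the median being −3.22 for mtYAP and −0.94 for YAP, where over all genes it was 0.02 for mtYAP and −0.0033 for YAP. Since the genes were chosen from these contrasts, nothing is read from these counts.

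The comparison of mtYAP with YAP leaves out the shared control array. Postn and Thbs2 lay below −1 in it and Mgp above 1, where 1.42% of all genes lay below −1 and 0.748% above 1. The other 6 genes lay between −0.71 for Smoc1 and 0.145 for Thbs1. The genes thus fell into 3 kinds by their values. Postn and Thbs2 were much lower in mtYAP than in YAP at levels that were measured on at least 1 of those arrays. Smoc2, Sparcl1 and Mgp were near the background in both lines. Sparc, Thbs1 and Tnc stayed within 2-fold of control in both, and Smoc1 lay between, at a low level throughout.

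**Figure D2:**
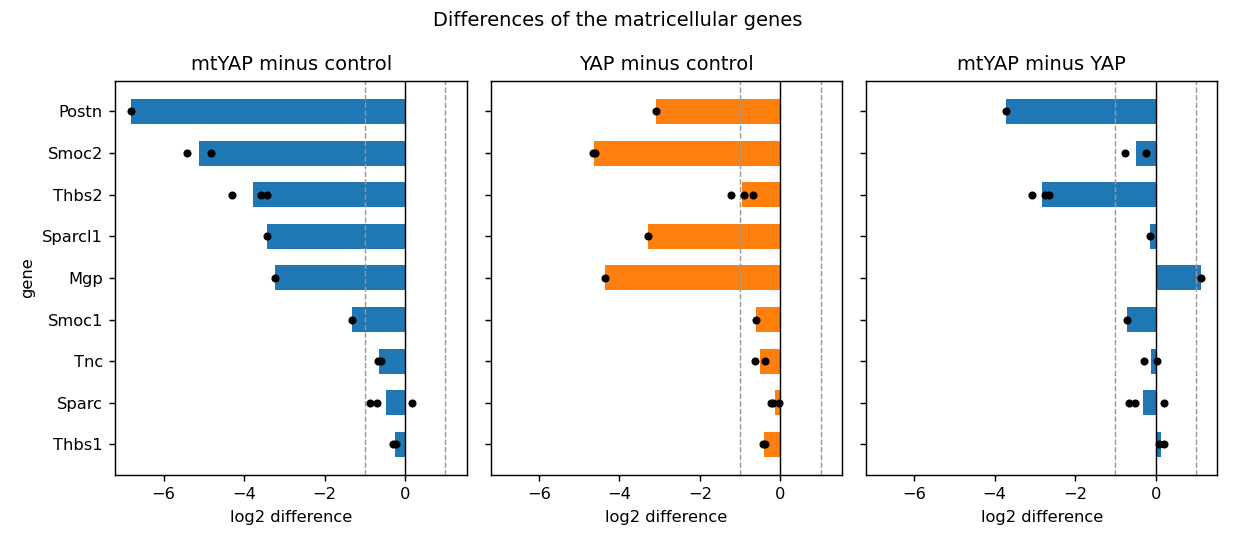
Log2 difference (horizontal axes) of each of the 9 genes (vertical axis) for mtYAP minus control, YAP minus control and mtYAP minus YAP. Bars are the means over the probe sets of a gene, black points are single probe sets, which are not replicates, and dashed lines mark 2-fold. Postn (−3.71) and Thbs2 (−2.83) have the longest bars in the direct comparison of the lines, and Mgp (1.14) points the other way.

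Genes related to these by family, binding or assembly were taken from 8 lists, of which 66 of 71 genes were measured. Of them 9 lay below −1 in mtYAP and 3 above 1, where 4.06% of all genes lay below and 3.77% above, and in YAP 4 lay below −1 and 2 above 1, where 1.26% of all genes lay below and 1.36% above, the median being −0.15 for mtYAP and −0.145 for YAP. With gene means under 6 set to 6, 4 lay below −1 in mtYAP and 1 in YAP. Some of these means include probe sets at background, as for Itga8 and Bmp1 below. Leaving out every probe set that stayed under 6 left 34 related genes. Of these, 9 were below −1 and 4 above 1 for mtYAP, and 4 were below −1 and 1 above 1 for YAP. The smaller counts with the floor therefore do not tell how many calls rest on low levels. Among 7 relatives of periostin, tenascin-C and the thrombospondins, Tgfbi was the lowest in both lines. It encodes the closest relative of periostin, also built of fasciclin domains, and its 4 probe sets averaged 3.25 in mtYAP, 4.76 in YAP and 6.51 in control. The difference was −3.27 (9.61-fold) for mtYAP and −1.76 (3.39-fold) for YAP, and its probe sets were lowest in mtYAP and highest in control without exception. Both lines were below 6, and with that floor the difference was −0.515 (1.43-fold) in each. Thbs3, a pentameric thrombospondin, read 5.18 in mtYAP, 6.21 in YAP and 6.37 in control, a difference of −1.19 in mtYAP, or −0.37 with the floor, and −0.16 in YAP. Tnxb, which encodes tenascin-X, ran the other way in YAP, at 5.14 in mtYAP, 6.74 in YAP and 5.38 in control. Tnn, Tnr, Thbs4 and Comp lay below 6 on all arrays and within 0.50 of control.

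Of 4 SPARC family relatives only Fstl1, a secreted follistatin-like glycoprotein, reached 6. It read 10.48 in mtYAP, 11.43 in YAP and 11.97 in control, with differences of −1.495 (2.82-fold) in mtYAP and −0.545 in YAP. The CCN proteins are matricellular too, and several are known targets of YAP. Of 6 genes, 3 lay above 1 in mtYAP and 1 below −1. The differences from control were 3.05 in mtYAP and 0.49 in YAP for Ccn2, 1.61 in mtYAP and −0.81 in YAP for Ccn1 and 1.39 in mtYAP and 0.995 in YAP for Ccn4, whereas Ccn5 had −1.11 in mtYAP and −1.17 in YAP. The list therefore held genes on both sides of control in mtYAP. Of 6 measured fibulins none passed the limit in either line. A list of Gla proteins and proteins of mineralized tissue, which also holds Gas6, Ahsg and Fetub, had 7 measured genes. None of them reached 6 on any array, and Fetub, at 1.17 in YAP, was the only one past the limit.

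Among 18 receptor genes, 2 lay below −1 in mtYAP and 1 in YAP. Itga8, the alpha subunit of an integrin that binds tenascin-C and osteopontin, read 2.99 in mtYAP, 3.99 in YAP and 6.58 in control, a difference of −3.60 in mtYAP and −2.60 in YAP. Both lines were below 6, and with that floor set on the means the difference was −0.58 (1.49-fold) in each. The brighter probe set of Itga8 read 3.40 in mtYAP, 5.17 in YAP and 8.12 in control. Its other probe set was below 6 on all arrays and pulls the means down. Lrp1, an endocytic receptor that clears thrombospondins, differed by −1.61 in mtYAP and −0.76 in YAP as the mean of probe sets that gave −0.83 and −2.38 in mtYAP. The other receptors stayed within 2-fold of control as means of their probe sets. The thrombospondin receptor Cd47 had differences of 0.38 (mtYAP) and 0.44 (YAP), and Cd44, a receptor of osteopontin and hyaluronan, was the highest of the list in mtYAP with 0.83 (mtYAP) and 0.45 (YAP). The mean of Cd44 includes a probe set at background, and over its 3 probe sets at 6 or more it was 1.15 (mtYAP), past 2-fold, and 0.70 (YAP). Of 10 measured structural partners and cross-linking enzymes, 1 passed the limit. This was Bmp1, a protease that processes procollagen and lysyl oxidase, at −1.15 in mtYAP and −0.30 in YAP, as a mean below 6 on all arrays. Of its 3 probe sets 1 stayed at background with 0.03, and the 1 that reached 6 gave −1.62 in mtYAP and −0.60 in YAP. Lox, the lysyl oxidase gene, had −0.69 (mtYAP) and −0.32 (YAP), and Fn1, which encodes fibronectin, had −0.40 (mtYAP) and −0.40 (YAP).

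Of 8 measured genes of latent TGF-beta and its binding proteins, Tgfb3, a TGF-beta ligand, read 5.26 in mtYAP, 6.98 in YAP and 8.09 in control. Its difference was −2.83 (7.11-fold) in mtYAP and −1.11 (2.16-fold) in YAP. The mtYAP level was below 6, and with that floor the difference in mtYAP was −2.09 (4.26-fold). Ltbp2, a latent TGF-beta binding protein of elastic fibres, stood at −1.51 in mtYAP and −0.75 in YAP. Tgfb1 and Tgfb2 were below 6 on all arrays, at −0.39 and −0.13 in mtYAP. Between mtYAP and YAP, Tgfb3 (−1.72), Tnxb (−1.60), Tgfbi (−1.51) and Thbs3 (−1.03) lay below −1, and Ccn2 (2.56) and Ccn1 (2.42) above 1. With gene means under 6 set to 6, none of these lay below −1, while Ccn2 and Ccn1 remained above 1. Over probe sets at 6 or more only, 6 of 34 related genes lay below −1 between mtYAP and YAP and 3 above 1. Of the 7129 genes whose mean reached 6 on at least 1 array, 218 lay below −1 and 95 above 1. The share of all genes over such probe sets was not computed, so nothing is read from these counts.

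**Figure D3:**
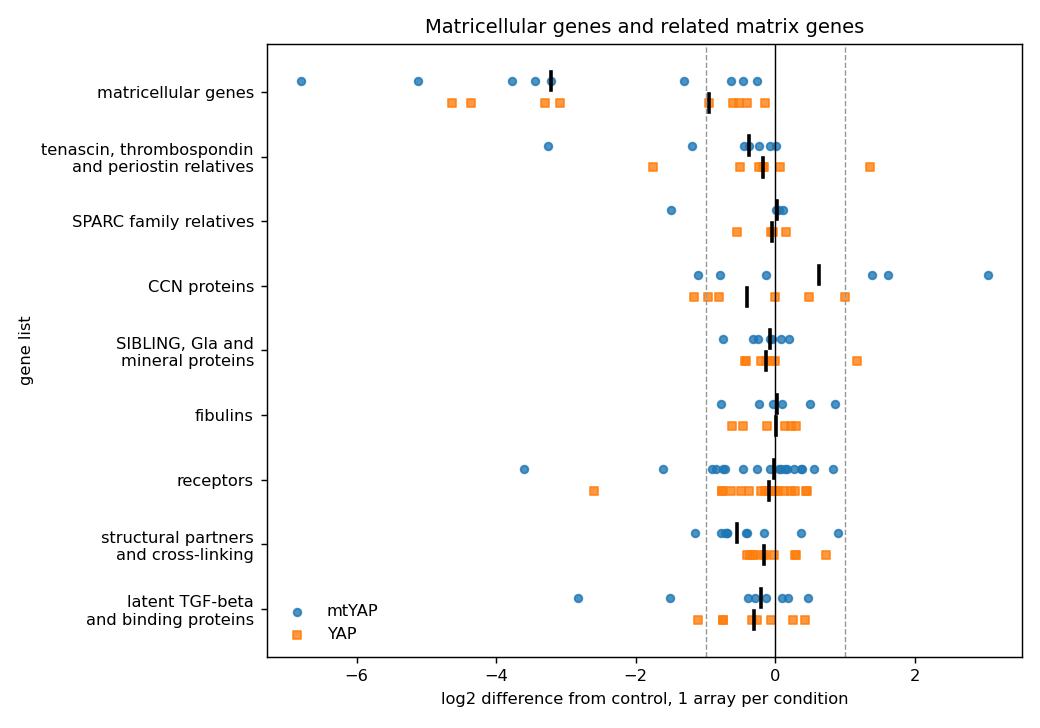
Horizontal axis, log2 difference from control for the matricellular genes and the measured members of 8 lists of related genes (rows of the vertical axis), in mtYAP (blue circles) and YAP (orange squares), with list medians as black bars and 2-fold as dashed lines. The medians of the matricellular genes are −3.22 in mtYAP and −0.94 in YAP, and the CCN proteins spread from −1.11 to 3.05 in mtYAP.

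The annotation places Smoc2 and Thbs2 next to each other, with no protein-coding gene between them. Beyond them, Dact2 on the side of Smoc2 had differences of 0.03 (mtYAP) and −0.13 (YAP). Wdr27 on the side of Thbs2 had −0.62 (mtYAP) and −0.54 (YAP). Both were below 6 on all arrays, so a fall in either could not be sized. After Wdr27 came 1600012H06Rik at −0.785 (mtYAP) and −0.415 (YAP) and Phf10 at 0.915 (mtYAP) and 0.285 (YAP), both above 6 on all arrays. Sparcl1 and Spp1 bound a run of 4 genes of mineralized tissue, Dspp, Dmp1, Ibsp and Mepe, all below 6 on all arrays. On the other side of Sparcl1, Hsd17b11, a steroid dehydrogenase, read 5.52 in mtYAP, 6.44 in YAP and 7.10 in control, at −1.58 in mtYAP. The 10 neighbours of Postn lay between −0.58 and 0.68 in mtYAP, and none of the measured neighbours of Mgp passed 2-fold in either line.

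Over the 5 protein-coding genes on each side of each measured member, 69 of 79 neighbours were measured. Of these 5 lay below −1 in mtYAP and 2 in YAP, none above 1, where 4.06% of all genes lay below −1 in mtYAP and 1.26% in YAP, the median being −0.02 for mtYAP and −0.09 for YAP. Near Thbs1, which itself stayed within 2-fold, lay Gpr176, an orphan receptor, at −2.49 in mtYAP and −2.11 in YAP. Eif2ak4, the amino acid sensing kinase GCN2, had −1.27 (mtYAP) and −0.96 (YAP). Bmf, a pro-apoptotic BCL2 family gene, had −1.39 (mtYAP) and −0.33 (YAP). As means, Eif2ak4 was below 6 in both lines and Bmf on all arrays. Over the 1 probe set of each that reached 6, Eif2ak4 had −1.01 (mtYAP) and −0.83 (YAP). Bmf had −3.56 (mtYAP) and −0.95 (YAP) there. Near Sparc lay Gria1, a glutamate receptor subunit, which read 2.26 in mtYAP, 2.48 in YAP and 4.89 in control, below 6 throughout.

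**Figure D4:**
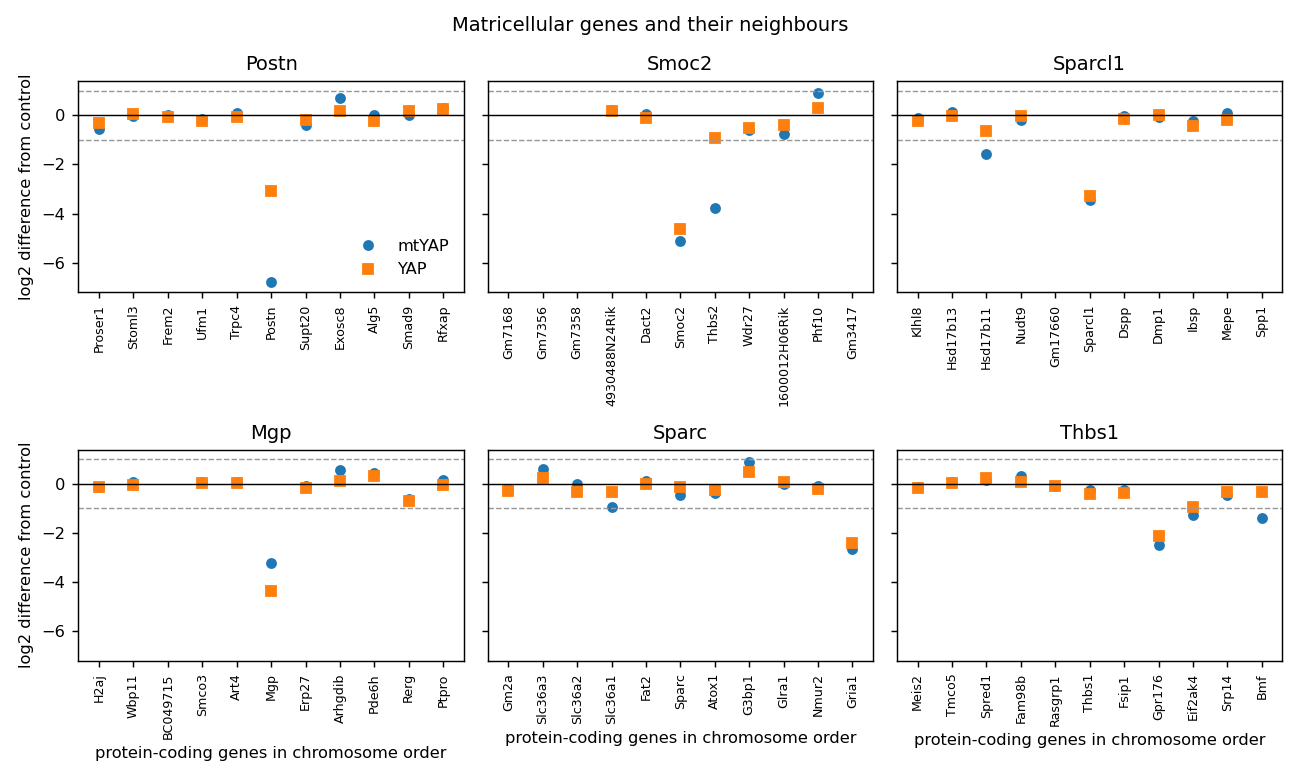
Log2 difference from control (vertical axes) in mtYAP (blue circles) and YAP (orange squares) of 6 of the genes and of the 5 protein-coding genes on each side, in the order of the GRCm38.p6 annotation (horizontal axes, evenly spaced), with 2-fold as dashed lines. Genes without a point are not measured here. Postn, Mgp and Sparcl1 stand apart from their neighbours, Smoc2 and Thbs2 adjoin, and Gpr176 near Thbs1 and Gria1 near Sparc lie lower than these.

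For the 6 genes past 2-fold, the genes whose pattern was most alike were taken as those at the smallest distance in both differences from control, among 5121 genes that reached 6 on at least 1 array and whose probe sets all moved the same way. The matricellular genes themselves were left out of these 5121 genes. The pattern rests on 3 arrays, and no more is read from the likeness. Nearest to Postn was Cdo1, cysteine dioxygenase, at 5.35 in mtYAP, 8.43 in YAP and 11.68 in control and a distance of 0.50 (computed, as for the others, with levels under 6 as they stand), before Aox3, an aldehyde oxidase, at 1.14 and Ptn, which encodes pleiotrophin, at 2.03. Nearest to Thbs2 was Aox1, another aldehyde oxidase, at 3.85 in mtYAP, 6.78 in YAP and 7.68 in control and a distance of 0.07, followed by Ptgfr, the prostaglandin F receptor, at 0.27 and Rin2 at 0.28. Sparcl1 had Rasl11b, Itga8 and the matrix gene Dpt, which encodes dermatopontin, at 0.59, 0.72 and 0.76. Smoc1 lay in a crowded range, with Kat2b, Lix1l and Tbx15 at 0.03, 0.03 and 0.04. Smoc2 and Mgp had no near neighbour among these candidates, their closest being Ptn at 1.68 and Rasl11b at 1.67. Sparcl1, itself left out, was nearer to Mgp than Rasl11b was in both differences. The differences of Sparcl1 from control were −3.44 in mtYAP and −3.30 in YAP. Those of Mgp were −3.22 in mtYAP and −4.36 in YAP, and those of Rasl11b −3.46 in mtYAP and −2.71 in YAP.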

How the data were processed

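RNA from 3 cultures was labelled as cRNA and read on Affymetrix mouse 3′ expression arrays. The authors subtracted background and normalized with RMA in R, and the deposited values are log2 levels per probe set, rounded to 2 decimals. The submitters' notes name RMA and affy without versions. The number of arrays limits precision.

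Of the probe sets 34945 have 1 gene symbol in the platform annotation, 932 several and 9160 none, and the first kind was averaged per gene. Of the Entrez identifiers 18032 matched the RefSeq annotation (GRCm38.p6), used for gene order only. Counts of calls take log2 differences above 1 or below −1. No test was run, and the counting was tested on simulated data.

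The genes, lists and alternatives were chosen with earlier results of these data known, and the TATAAA search was added after the other motifs. Named genes are all members, list members past 2-fold or at an extreme of their list, with some chosen after their values were seen, neighbours past 2-fold, and the 3 most alike genes. Alternatives were other ways of joining or leaving out probe sets, further scaling (median, loess with a span of 0.3, quantile), a floor at 6 and limits of 1.65-fold and 4-fold. The floor was set on each probe set for the counts of members under the alternatives, and on gene means elsewhere. Use of only probe sets at 6 or more was added after seeing the data. Protein sequences were not used here. Python 3.11.15, numpy 2.4.6, pandas 2.3.3, statsmodels 0.14.6 and matplotlib 3.10.9 were used.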

Additional observations from a re-analysis of the deposited data

Results flagged for a closer look

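Among the matricellular genes and their relatives, Ccn1 and Tnxb differed from control in opposite directions in the 2 overexpressing lines, with 1 of the differences past 2-fold. Ccn1 lay 2.42 higher in mtYAP than in YAP, and its 4 probe sets were above control in mtYAP and below it in YAP. Tnxb lay 1.60 lower in mtYAP than in YAP (−1.60) in its single probe set, with mtYAP and control below 6. With 1 array per line these differences were not tested.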

How the results depend on the processing

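The count of members below the 2-fold limit kept within 1.5 times in all 11 alternatives, with 5 to 6 genes in mtYAP, 4 to 5 in YAP and 2 between mtYAP and YAP, and no member passed the limit upward from control. The count of 1 member above the limit between mtYAP and YAP, which is Mgp, became 0 with levels under 6 set to 6, which leaves both of its values at the floor, and 0 at a limit of 4-fold. Thbs2 in YAP passed the 2-fold limit with the median of its probe sets (−1.11), without probe sets whose names mark possible cross-hybridization (−1.07) and after quantile normalization (−1.02), and it passed the smaller fold limit at its main value of −0.94. Smoc1 in mtYAP came to −0.02 with the floor and did not pass 4-fold. Further scaling moved the median of all genes by at most 0.02. Alternatives added after seeing the data bear on the other genes. With gene means under 6 set to 6, the related genes below −1 numbered 4 in mtYAP, against 9 as reported, and 1 in YAP, against 4. The neighbours numbered 2 in mtYAP, against 5, and 1 in YAP, against 2. The floor of the member counts was set on each probe set instead, so these counts are not to be set beside those. Over probe sets at 6 or more only, 9 of 34 related genes lay below −1 in mtYAP and 4 in YAP. Among genes whose mean reached 6 on at least 1 array, 8.22% lay below −1 in mtYAP and 2.3% in YAP. The share of all genes over such probe sets was not computed. Signal over background limits Smoc2, Sparcl1, Mgp and Smoc1 in both lines and Postn in mtYAP, between the lines too (−1.88 with the floor). It also limits Tgfbi, Itga8, Ccn5 and Thbs3, Tgfb3 in mtYAP, and Bmp1 as a mean only. The Bmp1 probe set that was above 6 on all arrays gave −1.62 in mtYAP. No replicate could be left out. No paired analysis was possible because each group has 1 array.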
